A study of Mus musculus with 10 samples.

Results

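This account follows 10 genes of the cadherin family, the cadherins Cdh1, Cdh2, Cdh3, Cdh13, Cdh16 and Cdh26 and the cadherin-related genes Cdhr1, Cdhr3, Cdhr4 and Cdhr5, out of 22180 genes measured in sorted mouse lung epithelial cells. They were found by gene symbol among probe sets that the platform annotation pairs with 1 symbol. The measured value used in that choice was the mean level: for a gene with several probe sets, the brightest over all 10 arrays was selected. This mattered for 2 genes. The list itself was chosen by earlier results of these data, so the counts among its members describe them and support nothing further. The Cdh1 probe set used averaged 12.17 on the log2 scale over all arrays, and the one set aside 8.91. The Cdh2 probe set used averaged 5.35, and the one set aside 2.87.

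The study compared 2 populations that the labels call type 2 alveolar epithelial cells, the cells that make surfactant and give rise to the flat type 1 cells of the air sacs. Axin2+ cells (5 arrays) came from Axin2CreERT2-TdTom mice and were sorted as TdTomato+, EpCAM+, CD31- and CD45-. Their Cre is driven by Axin2, a target gene of Wnt signalling, in any cell that uses that gene, and no type 2 cell marker is named in the gate. SP-C+ cells (5 arrays) came from SftpcCreERT2-R26REYFP mice and were sorted on YFP, 24 h into lineage tracing; their Cre is driven by Sftpc, the gene of surfactant protein C. By title and age label all mice were at postnatal day 4, although a description shared by all arrays speaks of P3 and adult cells. All were given as untreated, and their strain background combined C57BL/6, 129S6 and CD-1. No tracing time is given for Axin2+ cells. Mouse line, reporter and gate differ between the populations, and tracing time may differ too. None of these can be told apart from the cell label. No label says that replicates were separate animals, so p-values measure the spread between these samples, which may be technical.

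Cadherins are calcium-dependent adhesion proteins of the cell surface. The classical members bind like molecules on the neighbouring cell, and their cytoplasmic tails hold beta-catenin and p120-catenin. Beta-catenin ties the junction to actin through alpha-catenin. Beta-catenin is also the transcriptional effector of Wnt signalling, so cadherins and the Wnt pathway share a component. E-cadherin (Cdh1) is the junction cadherin of lung epithelium. Cadherin-related genes encode more distant relatives, several of which sit on cilia, microvilli or photoreceptors.

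The AEC2 label was set against marker genes first. All 18 AEC2 markers lay above the median gene in both groups. Their mean per array was 12.82 to 12.96 in Axin2+ arrays, against 13.07 to 13.13 in SP-C+ arrays, and 5 of the 18 fell and 0 rose. Sftpc, the brightest, averaged 14.11 ± 0.03 in Axin2+ arrays and 14.02 ± 0.03 in SP-C+ arrays (SD, n = 5 each), close to 14.16, the highest value on any array, where the signal may be saturated and a difference hidden. Markers of other cell types were read beside them. All 20 AEC1 markers and 16 of 19 ciliated cell markers were higher in Axin2+ arrays, as were 8 of 12 club and secretory cell markers. So were 4 of 7 mesothelial and 2 of 9 basal and neuroendocrine cell markers, with 0 lower. Among 13 leukocyte markers 1 was higher and 2 were lower. Among 13 mesenchymal markers 0 were higher and 1 was lower, and 0 of 12 endothelial markers passed. Of all genes, 8.61% were called higher and 8.95% lower (adjusted p under 0.05). In SP-C+ arrays 19 of the AEC1 markers also lay above the median gene, as did 5 ciliated cell and 5 club and secretory cell markers.

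Cdhr3 and Cdhr4, shown here because they had the largest differences among the 10 genes, have a promoter in the RefSeq table of build GRCm38.p6. Each line gives 280 bases, 250 before the start that the table uses and 30 from it on, 5′ to 3′ on the gene's strand. Cdhr3 is at chr12:33092846-33093125 on the minus strand and Cdhr4 at chr9:107992207-107992486 on the plus strand. Capitals mark GGCAAC, the reverse complement of GTTGCC, a half-site of the X-box that RFX transcription factors of ciliated cells bind.
Cdhr3: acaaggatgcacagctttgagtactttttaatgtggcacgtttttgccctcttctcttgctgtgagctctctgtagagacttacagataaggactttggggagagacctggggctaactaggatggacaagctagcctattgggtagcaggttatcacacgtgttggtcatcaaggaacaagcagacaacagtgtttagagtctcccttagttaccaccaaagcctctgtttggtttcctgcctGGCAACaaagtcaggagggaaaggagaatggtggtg
Cdhr4: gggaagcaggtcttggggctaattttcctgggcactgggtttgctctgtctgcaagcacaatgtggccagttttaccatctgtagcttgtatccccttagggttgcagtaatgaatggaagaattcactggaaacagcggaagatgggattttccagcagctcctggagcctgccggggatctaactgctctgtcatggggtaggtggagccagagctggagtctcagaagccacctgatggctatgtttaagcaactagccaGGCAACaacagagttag

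The half-site lies directly before the start in Cdhr3, its first base 6 bases upstream, and begins at base 14 of the transcript in Cdhr4. Both promoters also hold 1 copy of TGTTTA, a core of forkhead factor sites, on the gene's own strand. Both motifs were searched on both strands and do not overlap here, and they were chosen after the sequences had been read. GTTGCC was found in 11.8% of 32851 promoter windows of this length, TGTTTA in 12.9%, and both in 1.31%. Of the 20 promoters of 16 ciliated cell marker genes in the table, 10 held GTTGCC and 3 held TGTTTA. Some genes thus count more than once. Promoters of 5 of the 10 genes were searched here. Chromosome 18, where Cdh2 lies, was left out of that search. GTTGCC was in no window of Cdh26, Cdhr1 and Cdhr5, and TGTTTA was in that of Cdhr1. A match is a description of the letters and not a binding site.

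Of the 10 genes, 3 were called higher in Axin2+ arrays and 0 lower, while 17.6% of all genes were called in either direction (8.61% higher, 8.95% lower). A gene was called at an adjusted p under 0.05 in limma, with Benjamini-Hochberg adjustment over all genes. Cdhr3, Cdhr4 and Cdh13 rose 20.6-fold, 6.85-fold and 3.38-fold, and E-cadherin (Cdh1), P-cadherin (Cdh3) and N-cadherin (Cdh2) did not pass. These folds and their intervals compare the deposited values. The SP-C+ levels of the 3 genes lay below the median gene, and no detection call was used that would show them above background, so the folds may understate the differences in RNA. In the same 3 genes every Axin2+ array lay above every SP-C+ array, as in 7.38% of all genes, and in 0 of the 10 every Axin2+ array lay below, as in 7.66% of all genes.

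**Figure D1:**
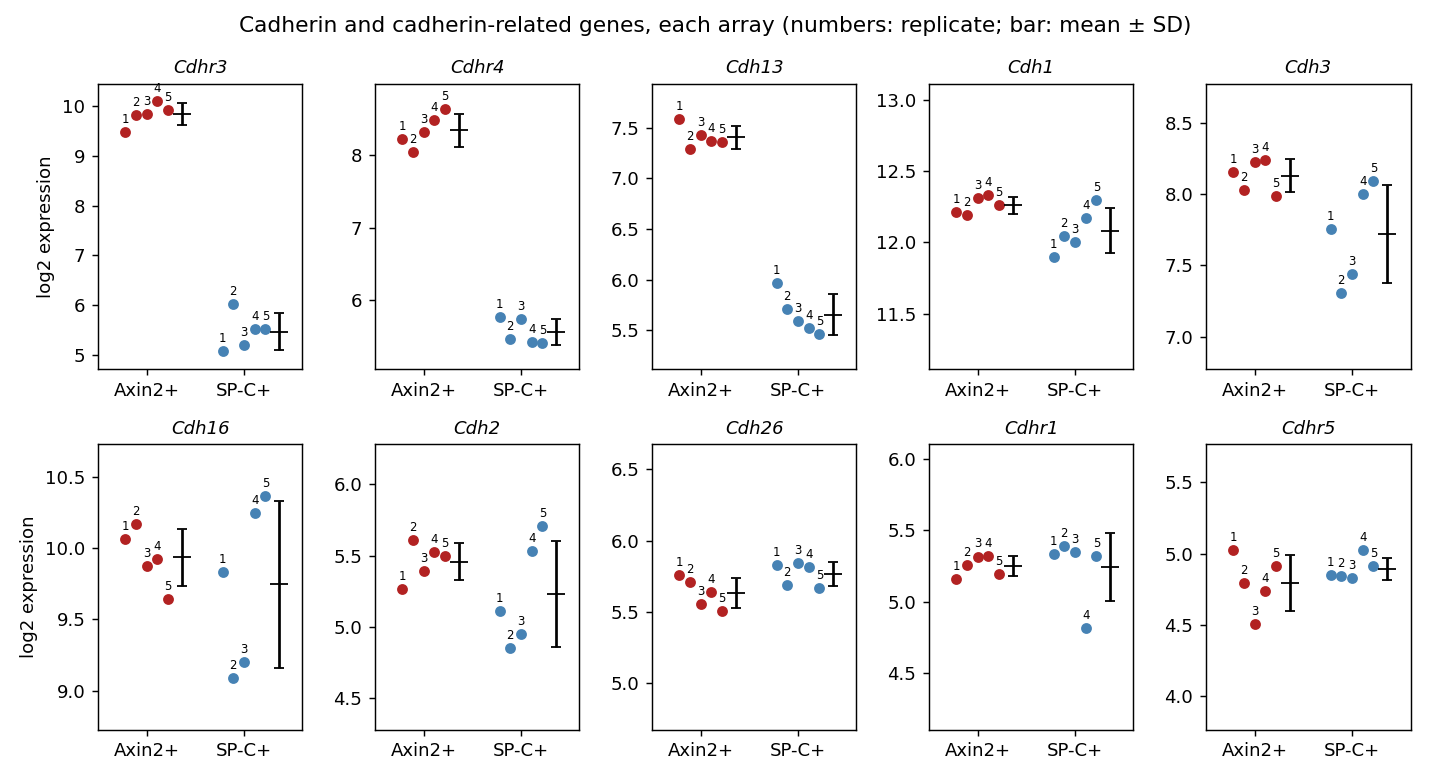
Log2 expression (vertical axes, each panel with its own range) of the 10 genes in each array, Axin2+ in red and SP-C+ in blue, with replicate numbers over the points and the mean ± SD as a bar. Axin2+ and SP-C+ points are apart for Cdhr3, Cdhr4 and Cdh13, and in Cdh3, Cdh16 and Cdh2 the SP-C+ points split, with replicates 4 and 5 on top.

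Cdhr3, which encodes a cadherin-related protein of ciliated airway cells and in humans a receptor for rhinovirus C, had the largest difference. Its log2 values were 9.48, 9.82, 9.84, 10.09 and 9.92 in Axin2+ replicates 1 to 5, against 5.07, 6.03, 5.20, 5.52 and 5.52 in SP-C+ replicates 1 to 5. The groups were far apart, with SP-C+ replicate 2 the highest of its group. The difference was 4.36 ± 0.17 (SE, n = 5 each), a fold of 20.6 with a 95% interval of 16.0 to 26.4 (adjusted p = 1.89e-09 in limma). Cdhr3 lay below the median gene on 5 of 5 SP-C+ arrays and above it on 5 of 5 Axin2+ arrays.

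Cdhr4 is a less studied cadherin-related gene. It measured 8.22, 8.04, 8.32, 8.48 and 8.63 in Axin2+ replicates 1 to 5, against 5.78, 5.47, 5.74, 5.42 and 5.41 in SP-C+ replicates 1 to 5. The groups did not overlap, and each varied far less than the gap between them (SD 0.23 in Axin2+ and 0.18 in SP-C+). The difference was 2.78 ± 0.12 (SE, n = 5 each), a fold of 6.85 with a 95% interval of 5.72 to 8.19 (adjusted p = 5.70e-09 in limma).

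The ciliated cell markers moved in the same arrays as Cdhr3 and Cdhr4. Their mean level per array was 7.70 to 8.01 in Axin2+ arrays, against 5.75 to 5.93 in SP-C+ arrays. Foxj1, the master regulator of motile cilia, averaged 8.76 ± 0.27 in Axin2+ arrays and 6.65 ± 0.38 in SP-C+ arrays (SD, n = 5 each), and Mcidas, a gene of ciliated cell commitment, averaged 7.33 ± 0.19 and 7.51 ± 0.14 without passing (adjusted p = 0.265 in limma). Array probes pick up background, so no marker reads as 0. The part of the ciliated cell markers in these rises was not tested. In bulk samples such as these, fewer cells of a type and less RNA per cell cannot be told apart.

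The genes most like each of the 3 were taken as those with the smallest root mean square distance between log2 profiles over the 10 arrays, after each gene's mean was subtracted, among named genes that are not predicted. For Cdhr3 the nearest was Fam183b, a gene of motile cilia, at a distance of 0.20. Next were Rtkn2, a gene of the AEC1 list, at 0.30, and Cyp2s1, a cytochrome P450 gene, at 0.31. For Cdhr4 they were Vwa3a at 0.17, Dnah5, the heavy chain of a ciliary outer dynein arm, at 0.18, and Fgf18, a fibroblast growth factor gene, at 0.19. With 2 groups this far apart, the distance is set mostly by the size of the group difference.

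Cdh13 encodes T-cadherin, which is held in the membrane by a lipid anchor, has no cytoplasmic tail for catenins and binds adiponectin. It measured 7.59, 7.29, 7.43, 7.37 and 7.36 in Axin2+ replicates 1 to 5, against 5.97, 5.71, 5.59, 5.52 and 5.47 in SP-C+ replicates 1 to 5. All Axin2+ arrays were above all SP-C+ arrays, and the spread within each group was small (SD 0.11 in Axin2+ and 0.20 in SP-C+). The difference was 1.76 ± 0.10 (SE, n = 5 each), a fold of 3.38 with a 95% interval of 2.90 to 3.93 (adjusted p = 7.61e-08 in limma). Like Cdhr3 and Cdhr4, it was below the median gene on every SP-C+ array and above it on every Axin2+ array.

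Several marker lists differ between the groups as Cdh13 does. AEC1 markers averaged 11.18 to 11.56 per array in Axin2+ and 8.89 to 9.38 in SP-C+. Mesothelial markers averaged 7.20 to 7.45 in Axin2+ and 5.96 to 6.51 in SP-C+, with 4 of 7 higher, led by Msln (difference 3.12), while the mesothelial transcription factor gene Wt1 averaged 6.17 in Axin2+ and 6.13 in SP-C+ arrays. Ciliated cell markers (16 of 19) and club and secretory cell markers (8 of 12) were also higher, where 8.61% of all genes were called higher. Endothelial cells use Cdh13 as well. Endothelial markers averaged 6.17 to 6.41 in Axin2+ arrays and 6.12 to 7.25 in SP-C+ arrays, and 0 of 12 passed. The part of any of these markers in the Cdh13 rise was not tested. The genes nearest to Cdh13 by profile were Samhd1, a nucleotide hydrolase gene (distance 0.14), the microRNA gene Mir181b-1 (0.14) and Tcte1, a gene of the sperm and ciliary axoneme (0.14).

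**Figure D2:**
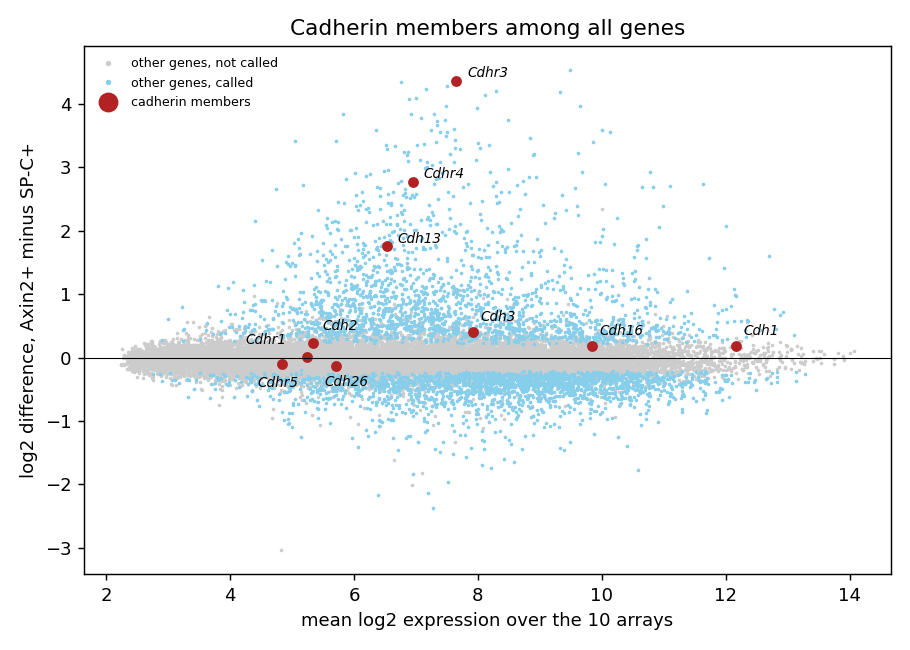
Log2 difference, Axin2+ minus SP-C+ (vertical axis), against mean log2 expression over the 10 arrays (horizontal axis), 1 point per gene, with called genes in blue, genes not called in grey and the 10 cadherin genes in red. Cdhr3 is at 4.36, Cdhr4 and Cdh13 are at 2.78 and 1.76, and the other seven lie within 0.41 of 0.

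E-cadherin (Cdh1) was bright in both groups. Its values were 12.21, 12.19, 12.31, 12.33 and 12.26 in Axin2+ replicates 1 to 5, against 11.90, 12.05, 12.00, 12.17 and 12.30 in SP-C+ replicates 1 to 5. The groups overlapped, through SP-C+ replicate 5. The difference was 0.18 ± 0.08 (SE, n = 5 each, adjusted p = 0.187 in limma), and its 95% interval, -0.01 to 0.36, leaves room for a fold of at most 1.28. The other Cdh1 probe set gave 8.91 ± 0.29 in Axin2+ and 8.91 ± 0.24 in SP-C+ arrays (SD, n = 5 each).

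P-cadherin (Cdh3), a classical cadherin of placenta and basal epithelia whose gene is on chromosome 8 with Cdh1, Cdh13 and Cdh16, was the closest of the other seven to a call. It measured 8.16, 8.03, 8.23, 8.24 and 7.99 in Axin2+ replicates 1 to 5, against 7.75, 7.31, 7.44, 8.00 and 8.10 in SP-C+ replicates 1 to 5. Only SP-C+ replicates 4 and 5 reached into the Axin2+ range. The difference was 0.41 ± 0.14 (SE, n = 5 each, adjusted p = 0.0684 in limma), with a 95% interval of 0.10 to 0.72.

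Cdh16, which encodes the kidney-specific cadherin of tubule epithelium, was also bright in these cells. It measured 10.06, 10.17, 9.88, 9.92 and 9.64 in Axin2+ replicates 1 to 5, against 9.83, 9.09, 9.20, 10.25 and 10.37 in SP-C+ replicates 1 to 5. The Axin2+ arrays lay inside the SP-C+ range. The SD was 0.20 in Axin2+ arrays and 0.59 in SP-C+ arrays, the widest group of all 10 genes, and the difference of 0.19 ± 0.23 (SE) did not pass (adjusted p = 0.653 in limma).

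N-cadherin (Cdh2), the classical cadherin of neural and mesenchymal cells, was below the median gene on all 10 arrays. It measured 5.27, 5.61, 5.39, 5.53 and 5.50 in Axin2+ replicates 1 to 5, against 5.11, 4.85, 4.95, 5.54 and 5.71 in SP-C+ replicates 1 to 5. As in Cdh3 and Cdh16, SP-C+ replicates 4 and 5 were the highest of their group. The difference was 0.23 ± 0.15 (SE, adjusted p = 0.369 in limma), with a 95% interval of -0.11 to 0.56.

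SP-C+ replicates 4 and 5 thus stood above replicates 1, 2 and 3 in Cdh1, Cdh2, Cdh3 and Cdh16 alike. The split was known from other genes in earlier work on these data. Leaving out the highest arrays of a group moves its mean by construction, so the values that follow describe the dependence on these arrays and are no test of the genes. Without replicates 4 and 5, all 4 of these genes passed as higher in Axin2+ arrays, at 0.28, 0.49, 0.63 and 0.56 (adjusted p = 0.0325, 0.00643, 0.00301 and 0.0436 in limma). The count of called genes was then 7 of 10, all higher, where 9.57% of all genes were called higher. Without replicates 1, 2 and 3, none of the 4 passed, and their differences were 0.02, -0.16, 0.08 and -0.37 (adjusted p = 0.117 or higher), while Cdhr3, Cdhr4 and Cdh13 stayed at 4.31, 2.92 and 1.92 and were again the 3 called, where 6.78% of all genes were called higher. The fit without replicates 1, 2 and 3 kept only SP-C+ replicates 4 and 5. A call lost in it, here or below, may also come from the smaller number of arrays. The AEC2 marker mean did not follow the split, at 13.09, 13.13, 13.07, 13.09 and 13.10 in SP-C+ replicates 1 to 5. Endothelial markers averaged 7.25, 6.24, 6.64, 6.18 and 6.12 in the same arrays, highest in replicates 1 and 3 and lowest in replicates 4 and 5. The part of these markers was not tested.

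**Figure D3:**
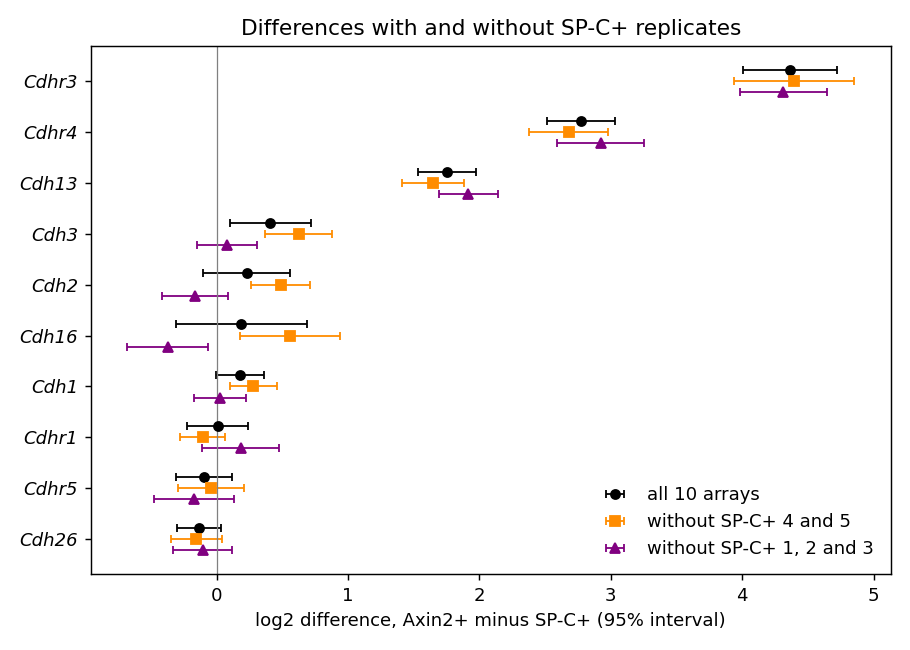
Log2 difference, Axin2+ minus SP-C+ (horizontal axis), with its 95% interval for each of the 10 genes, over all 10 arrays (black), without SP-C+ replicates 4 and 5 (orange) and without SP-C+ replicates 1, 2 and 3 (purple). Cdhr3, Cdhr4 and Cdh13 are far from 0 in all 3 fits, while Cdh1, Cdh2, Cdh3 and Cdh16 move with the SP-C+ arrays used.

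Cdh26, Cdhr1 and Cdhr5 were dim, below the median gene on all 10 arrays. Cdh26, a cadherin of inflamed epithelia in humans, ranged from 5.51 to 5.76 (median 5.64) in Axin2+ arrays and from 5.67 to 5.84 in SP-C+ arrays, and differed by -0.13 ± 0.08 (SE, adjusted p = 0.279 in limma). Cdhr1, a photoreceptor protein gene, ranged from 5.16 to 5.32 in Axin2+ arrays and from 4.81 to 5.39 in SP-C+ arrays, and differed by 0.01 ± 0.11 (adjusted p = 0.968). Cdhr5, a cadherin of intestinal and kidney microvilli, ranged from 4.51 to 5.03 in Axin2+ arrays and from 4.83 to 5.02 in SP-C+ arrays, and differed by -0.10 ± 0.10 (adjusted p = 0.573). Their 95% intervals reached no further than -0.31 and 0.24, but background signal narrows the differences of genes this dim.

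The rest of the cadherin superfamily was read beside the same 17.6% of all genes called. Of 17 other Cdh genes 1 was higher and 0 lower, with a median difference of -0.04, the same as the median of all genes. The higher one was Cdh4, R-cadherin, which averaged 6.41 ± 0.33 in Axin2+ and 5.59 ± 0.28 in SP-C+ arrays (SD, n = 5 each). Its difference of 0.82 ± 0.17 (SE) passed at an adjusted p of 0.00414 in limma, but not without SP-C+ replicates 1, 2 and 3 (0.53, adjusted p = 0.124). Cdh5, VE-cadherin of endothelium, did not pass (-0.25, adjusted p = 0.685 in limma). It ranged from 7.63 to 8.18 in Axin2+ arrays and from 7.54 to 9.68 in SP-C+ arrays, highest in SP-C+ replicate 1, which also had the highest mean of the endothelial markers, a list that includes Cdh5. Cdh11, a cadherin of mesenchymal cells, averaged 7.24 ± 0.32 in Axin2+ and 7.28 ± 0.28 in SP-C+ arrays.

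Among 15 other cadherin-related genes 1 rose and 3 fell. Clstn2, a calsyntenin gene, rose by 0.54 ± 0.11 (SE). Ret, a receptor kinase gene with cadherin-like domains, fell by 0.47, the giant cadherin gene Fat2 by 0.46, and Celsr2, a planar polarity gene, by 0.32. Celsr2 lost its call in 8 of the 10 refits that dropped an array, at adjusted p-values up to 0.0894 in limma when Axin2+ replicate 3 was dropped. Ret lost its call when SP-C+ replicates 1, 2 and 3 were dropped (adjusted p = 0.288). Of 11 protocadherin genes outside the clusters 0 passed, with differences between -0.29 and 0.05. In each group only 1 of the 11 lay above the median gene, so background signal may narrow these differences. Of 9 desmosomal cadherin genes 1 passed, Dsc2 at 0.26, and it lost its call in 7 of the 10 refits (adjusted p = 0.107 at most in limma, when Axin2+ replicate 1 was dropped). Dsc2 was dim, at 4.20 in Axin2+ and 3.94 in SP-C+ arrays, below 4.77, the 25th percentile of gene means. Only 1 of the 9 lay above the median gene in each group.

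Partners of the junction moved in both directions. Of 21 catenins and junction partners, 9 rose and 3 fell, against 17.6% of all genes called, with a list median of 0.06. Beta-catenin (Ctnnb1) was bright in both groups, at 12.21 ± 0.06 in Axin2+ and 12.25 ± 0.15 in SP-C+ arrays. It did not pass (-0.04, adjusted p = 0.812 in limma), nor did plakoglobin (Jup, 0.04, adjusted p = 0.769). Alpha-catenin (Ctnna1), which links beta-catenin to actin, and p120-catenin (Ctnnd1), which keeps cadherins at the surface, passed narrowly at 0.25 ± 0.08 and 0.33 ± 0.10 (SE, adjusted p = 0.0427 and 0.0330). Those calls were lost in 9 and 6 of the 10 refits that dropped an array (adjusted p = 0.102 at most for Ctnna1, when Axin2+ replicate 3 was dropped, and 0.0815 for Ctnnd1, when Axin2+ replicate 4 was).

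The nectins, a second adhesion family of the same junction, moved both ways. Nectin3 rose by 0.94 ± 0.09 (SE, adjusted p = 9.79e-06 in limma) and the groups did not overlap, with means of 9.96 ± 0.07 in Axin2+ and 9.02 ± 0.18 in SP-C+ arrays (SD, n = 5 each). Nectin1 fell by 0.68 and Nectin4 by 0.57, with adjusted p-values of 0.00315 and 0.00323. Adam10, the protease that sheds E-cadherin and N-cadherin, rose by 0.55 ± 0.09 (adjusted p = 7.47e-04). Camsap3, which anchors microtubules at the junction, fell by 0.35, and lost its call in 8 of the 10 refits (adjusted p = 0.0872 at most, when Axin2+ replicate 3 was dropped). Delta-catenin (Ctnnd2), a p120 relative of neural tissue, measured 9.98 to 10.47 in Axin2+ arrays, against 8.82, 8.88, 9.00, 9.94 and 10.11 in SP-C+ replicates 1 to 5. Its difference of 0.91 (adjusted p = 0.0194) followed the same SP-C+ split as Cdh2, Cdh3 and Cdh16, and was 0.23 without replicates 1, 2 and 3 (adjusted p = 0.315), where 5 of the 21 rose. It also missed the threshold without SP-C+ replicate 2 or 3 alone (adjusted p = 0.0503 and 0.0505).

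**Figure D4:**
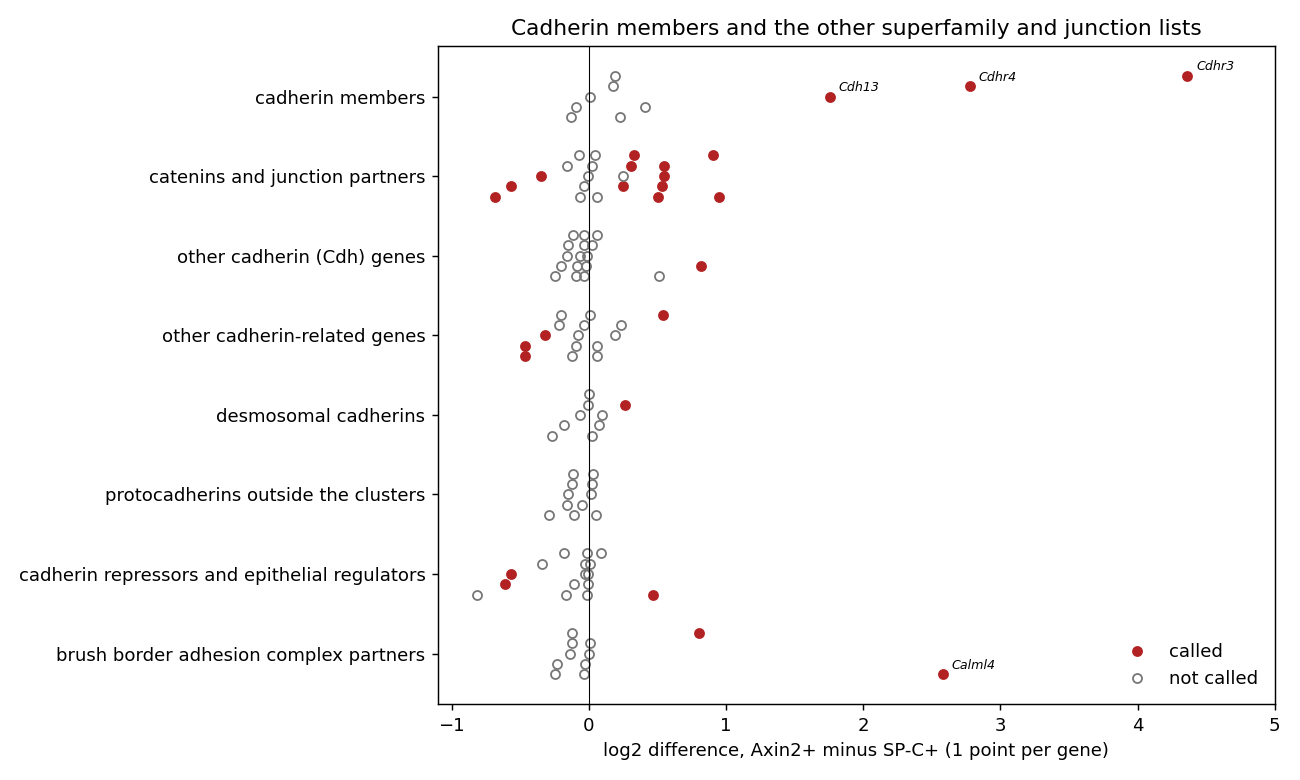
Log2 differences, Axin2+ minus SP-C+ (horizontal axis), 1 point per gene, for the 10 cadherin genes and 7 related lists, with called genes filled and genes not called open. Outside the 10 genes only Calml4, at 2.58, has a called difference above 1.

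Of 16 genes that repress cadherins or regulate the epithelial state, 1 rose and 2 fell, beside 17.6% of all genes called. The largest difference in the list was that of Klf4, an epithelial transcription factor gene, at -0.81 without passing (adjusted p = 0.0696 in limma). The repressor genes Snai1, Snai2, Zeb1 and Twist1 had differences of 0.01, -0.11, -0.01 and 0.09, and Grhl2, an activator of Cdh1, had -0.03, with adjusted p-values of 0.515 or higher in limma. Zeb1 and Twist1 averaged 5.56 and 5.76 in Axin2+ arrays and 5.57 and 5.67 in SP-C+ arrays, below the median of gene means, 6.37. Background signal may narrow the differences of genes this dim. Grhl3, a grainyhead factor of barrier epithelia, rose by 0.47 ± 0.11 (SE). Snai3 fell by 0.61 and Ovol1, an epithelial zinc finger gene, by 0.57, and neither passed when SP-C+ replicates 1, 2 and 3 were dropped (adjusted p = 0.0764 and 0.421). Snai3 also lost its call in 4 of the 10 refits that dropped an array (adjusted p = 0.0711 at most, when Axin2+ replicate 3 was dropped) and Ovol1 in 5 (0.0711 at most, when Axin2+ replicate 2 was).

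The Cdhr5 protein works in an adhesion complex of microvilli. Of 11 genes listed for that complex and for microvilli, 2 rose and 0 fell, a share near the 17.6% of all genes called. The partner cadherin Cdhr2 averaged 3.41 ± 0.24 in Axin2+ and 3.53 ± 0.14 in SP-C+ arrays (SD, n = 5 each), and Ush1c, Anks4b and Myo7b, the scaffold and motor genes of the complex, did not pass either (adjusted p = 0.179, 0.485 and 0.989 in limma). Calml4, the calmodulin-like light chain of that complex, rose by 2.58 ± 0.18 (SE, adjusted p = 3.55e-07), with 7.89 to 8.85 in Axin2+ arrays, against 5.29 to 5.94 in SP-C+ arrays. Pls1, an actin-bundling protein gene of microvilli, rose by 0.80 ± 0.12 (adjusted p = 3.28e-04). Ciliated cell and AEC1 markers were higher in the same arrays, and their part in these rises was not tested.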

How the data were processed

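Expression was deposited as log2 values for 41345 probe sets on 10 arrays, and no label states how the authors normalized them. Tools named in the submitters' processing notes are oligo, RMA and limma, with no version or role. The log base was taken from the values, which run from 1.69 to 14.16. Array medians lay between 5.89 and 5.97, and 0 pairs of arrays were identical. Signal over background and the number of arrays limit the precision.

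The platform annotation gave 1 symbol to 23521 probe sets, several to 1814 and none to 16010, which left 22180 genes after the brightest probe set per gene was taken. Groups came from sample titles. All genes entered 1 limma fit (version 3.58.1, R 4.3.3) by lmFit and eBayes, two-sided and without covariates. Standard errors are moderated. Of 229 list names, 221 matched by symbol and 2 by synonym. The code was tested on simulated data.

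The members and lists were chosen with earlier results of these data known. Named were all members, up to 3 called rises and 3 called falls of each junction list, 6 genes by name, and the 3 nearest profiles. The rule also covered the brightest marker and largest called difference of each marker list, of which only Sftpc, Fam183b, Msln and Cdh5 are described. Markers, regulators and complex partners named beyond this rule (Foxj1, Mcidas, Wt1, Snai1, Snai2, Zeb1, Twist1, Grhl2, Klf4, Cdhr2, Ush1c, Anks4b, Myo7b) were picked after their values were seen. Same-numbered replicates did not deviate together (correlations of -0.23 to 0.01), so the numbers were not treated as pairs.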

Additional observations from a re-analysis of the deposited data

Results flagged for a closer look

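In a group of 5 arrays, a value was singled out when its gap to the nearest other array took up an unusually large share of the group's range (Dixon's criterion). Of 112 groups of values examined, 4 met it, and chance alone gives about 1 in 20. Among the cadherin genes only Cdhr1 had one, with SP-C+ replicate 4 at 4.81 and the other SP-C+ arrays between 5.32 and 5.39. Ret was at 6.83 in SP-C+ replicate 5, against 7.37 to 7.51 in the others of its group. Fat2 was at 7.70 in Axin2+ replicate 5, against 7.96 to 8.01. Rtkn2 was at 11.50 in Axin2+ replicate 1, against 11.65 to 11.69.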

How the results depend on the processing

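Cdhr3, Cdhr4 and Cdh13 kept their direction and call under every alternative run, at 4.26 to 4.50, 2.70 to 2.85 and 1.71 to 1.83 in fits without 1 array. The count of called cadherin genes was 3 to 4 in those fits. It was 7, all higher, without SP-C+ replicates 4 and 5, where 9.57% of all genes were called higher. Cdh1, Cdh2, Cdh3 and Cdh16 passed in that fit at 0.28, 0.49, 0.63 and 0.56. The arrays left out were the highest SP-C+ arrays in these genes, so their differences rose by construction and the count tests nothing. Cdh3 also passed with the 50th percentile filter (0.41, adjusted p = 0.0450), with array weights (0.42, adjusted p = 0.0494), without SP-C+ replicate 4 (0.48) and without SP-C+ replicate 5 (0.50), with a range of 0.30 to 0.50 over fits without 1 array. Of all genes, 8.61% were called higher and 8.95% lower. The lists of other superfamily and junction genes held 17, 15, 11, 9, 21, 16 and 11 genes, with Cdhr2 in more than 1. Among these genes 15 rose and 8 fell, 9 and 3 of them from the 21 catenins and junction partners. Those that rose numbered 10 to 17 without 1 array, 9 without SP-C+ replicates 1, 2 and 3, and 1 at a difference of at least 1. Those that fell numbered 4 to 10 without 1 array, 5 without SP-C+ replicates 1, 2 and 3, 4 over all probe sets, 3 at an adjusted p under 0.01 and 0 at a difference of at least 1. With the replicate block 11 rose and 5 fell, and the same 3 cadherin genes were called. Of 5 Axin2+ arrays, 0 correlated best with the SP-C+ array of their own number. The other Cdh1 and Cdh2 probe sets, added after seeing the data, gave -0.01 and 0.07. Differences called under neither setting changed sign in 9 of 208 alternatives for the cadherin genes. Of 958 alternatives for 46 other named genes, 870 stayed on the same side of the threshold, 79 lost the call, 9 gained it and 0 called differences reversed. Among the 870, 14 differences called under neither setting changed sign. The causes were not tested. Dim genes are limited by background signal.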
